A study of Mus musculus with 46 samples.

Results

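The H3K36me3 ChIP-Seq libraries of 5 populations collected while mouse embryonic fibroblasts (MEFs) were being reprogrammed were described in day order, from the peak lists deposited for them. They were chosen by their labels as the H3K36me3 libraries of D3, D6T-, D9T-, D12S+ and D16S+, and are 5 of the 46 samples of the series, 30 of which have a peak list here. Together they hold 168608 peaks on the assembled chromosomes. The MEFs carried a GFP reporter in the Oct4 locus and were infected with retroviruses for Oct4, Sox2, Klf4 and c-Myc (OSKM). D3 was the whole culture 3 days after infection, D6T- and D9T- were the Thy-1-negative cells sorted on days 6 and 9, and D12S+ and D16S+ were the SSEA-1-positive cells sorted on days 12 and 16. D0, the MEFs at day 0, and iPSCs, the fully reprogrammed cells, were set beside them. All 5 intermediates thus received the factors, and each is a mixed population defined by at most 1 surface marker, so that the day, the sort and the library cannot be told apart. There was 1 library per group: no difference has a replicate check, no test across libraries was made, and intervals are 95% Wilson intervals that cover counting error only. The interval of a difference joins the Wilson limits of both shares as if independent, although the same genes were read in both libraries.

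H3K36me3 is the trimethylation of lysine 36 of histone H3. The enzyme Setd2 places it while travelling with elongating RNA polymerase II, so the mark lies over the bodies of transcribed genes and becomes denser towards their 3′ ends, unlike H3K4me3, which marks promoters. In fibroblasts, genes of the extracellular matrix and the contractile cytoskeleton are among the most transcribed, whereas pluripotent cells depend on a network around Oct4 (Pou5f1), Sox2 and Nanog and divide rapidly. Many zinc-finger genes carry H3K36me3 together with the repressive mark H3K9me3 over their coding 3′ exons. A gene is called covered here when at least 10% of its body, from annotated start to end, lies under peaks. In these bulk samples, fewer cells carrying the mark and less mark per cell cannot be told apart.

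5 stretches of 200 bases of the mm9 genome show what lay under the peaks, each read on the plus strand. The zinc-finger gene Zfp180 (chr7:24890093-24890292) and the splicing factor gene Srrm2 (chr17:23952115-23952314) stand for exons covered in all 5 intermediates. Col1a2, a chain of type I collagen (chr6:4490460-4490659, an exon with the end of the intron before it), stands for sequence under peaks in D0 and D3 only, and Mcm5, a subunit of the replicative helicase (chr8:77636416-77636615, also an exon with an intron end), was under a peak, among the 5 intermediates, in D9T- only. The last stretch (chr9:35113279-35113478) is the centre of the highest D6T- peak, outside coding sequence and covered in no other of the 7 H3K36me3 libraries, where the input too was dense, at 141 times its median over the D6T- peaks. It is shown because it is the highest peak, not as an example of a domain. Capitals mark the letters GGNGAGAAA, part of the linker that joins C2H2 zinc fingers, in Zfp180, and CG dinucleotides in the others.
Zfp180: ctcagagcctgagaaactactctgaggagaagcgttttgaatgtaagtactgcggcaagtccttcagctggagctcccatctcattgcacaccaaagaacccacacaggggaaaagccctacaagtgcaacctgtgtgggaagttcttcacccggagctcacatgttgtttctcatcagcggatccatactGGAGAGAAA
Srrm2: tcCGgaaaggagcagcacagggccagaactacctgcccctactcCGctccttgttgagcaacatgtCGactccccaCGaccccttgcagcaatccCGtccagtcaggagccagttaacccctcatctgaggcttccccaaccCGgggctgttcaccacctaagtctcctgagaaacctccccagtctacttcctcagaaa
Col1a2: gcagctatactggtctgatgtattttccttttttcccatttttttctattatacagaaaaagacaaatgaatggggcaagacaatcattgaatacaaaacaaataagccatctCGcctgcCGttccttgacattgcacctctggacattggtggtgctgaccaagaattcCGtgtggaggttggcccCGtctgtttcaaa
Mcm5: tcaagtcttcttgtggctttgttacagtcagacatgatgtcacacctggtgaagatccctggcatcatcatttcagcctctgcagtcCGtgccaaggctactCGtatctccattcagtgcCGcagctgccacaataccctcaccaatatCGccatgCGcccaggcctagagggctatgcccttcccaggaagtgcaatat
D6T- highest peak: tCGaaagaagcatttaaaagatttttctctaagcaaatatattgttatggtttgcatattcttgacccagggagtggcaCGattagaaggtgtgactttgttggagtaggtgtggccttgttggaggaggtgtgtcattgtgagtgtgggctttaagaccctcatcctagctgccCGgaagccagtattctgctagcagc

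The 5 libraries differed far more in enrichment than in depth. Total tags were 23.4M at D3, 25.4M at D6T-, 22.4M at D9T-, 21.9M at D12S+ and 13.2M at D16S+. The share of them in peaks was 14.1% at D3, 7.50% at D6T-, 42.4% at D9T-, 1.07% at D12S+ and 1.99% at D16S+, against 31.3% in D0 and 2.88% in iPSCs. D9T- and D0 were therefore the most enriched, and D12S+, D16S+ and iPSCs the least. The estimated fragment length was 444 bp in D6T- and 126 to 158 bp in the other 4, which sets D6T- apart. Peaks covered 84.0 Mb at D3, 48.5 Mb at D6T-, 167 Mb at D9T-, 7.42 Mb at D12S+ and 11.1 Mb at D16S+. In D12S+ and D16S+ 71.6% and 64.1% of peaks had the smallest size, 500 bp, against 22.9% at D9T-, so single windows rather than broad domains made up most of the peaks there. To make the libraries more alike, the 12308 peaks with the highest normalized tag count, the number present in D12S+, were taken from each. They still covered 52.5 Mb at D3, 32.4 Mb at D6T-, 121 Mb at D9T-, 7.42 Mb at D12S+ and 8.97 Mb at D16S+ (D0 103 Mb, iPSCs 12.3 Mb), so D0 with D9T-, and D12S+ with D16S+ and iPSCs, are the closest matched.

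**Figure D1:**
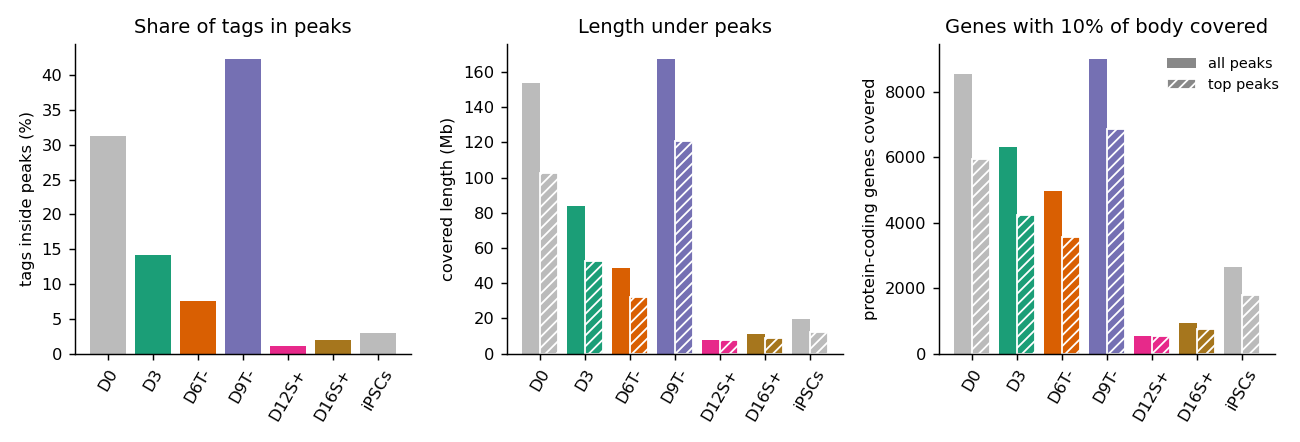
Enrichment and coverage of the H3K36me3 libraries in day order, 1 library per point or bar. The share of tags in peaks was highest in D9T- (42.4%) and lowest in D12S+ (1.07%), and the covered length followed it.

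All 5 libraries had the gene-body pattern of H3K36me3. Of the covered base pairs, 91.5% lay in protein-coding genes in D3, 92.9% at D6T-, 92.2% at D9T-, 88.0% at D12S+ and 84.3% at D16S+. Among genes of at least 10 kb holding a peak, the covered share in D3 was 3.50% in the first of 10 equal parts of the body and 20.3% in the last. The corresponding values were 1.89% and 15.5% at D6T-, 7.27% and 39.1% at D9T-, 0.466% and 2.56% at D12S+, and 0.548% and 2.94% at D16S+. The last part was thus 5.80, 8.20, 5.37, 5.49 and 5.37 times the first in day order, including the poorly enriched late libraries, against 2.06 times in iPSCs.

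**Figure D2:**
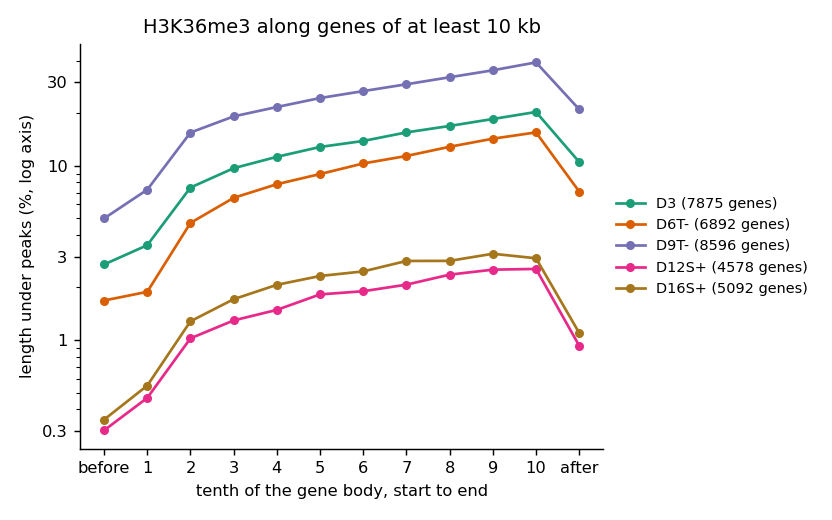
Share of the gene body under H3K36me3 peaks by position from start to end of genes of at least 10 kb, 1 line per library. Coverage was higher at the 3′ end in each library, from 7.27% to 39.1% at D9T- and from 0.466% to 2.56% at D12S+.

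With all peaks, 6330 of 22367 protein-coding genes were covered in D3 (28.3%), 4964 at D6T- (22.2%), 9019 at D9T- (40.3%), 526 at D12S+ (2.35%) and 923 at D16S+ (4.13%). With equal numbers of top peaks the counts were 4227 (18.9%), 3568 (16.0%), 6863 (30.7%), 526 (2.35%) and 757 (3.38%), and these are the background shares for each list named further on, which use top peaks for counts of genes. Shares of single gene bodies are given with all peaks, since the lowest of the top peaks had 76.4 normalized tags in D9T- and 5.49 at D12S+, so that a weak domain is left out of the first and kept in the second. D9T- had the most covered genes and D12S+ the fewest under both counts, in the order of the share of tags in peaks, whose part in these counts was not tested. With an equal covered length the order turned, with 676 genes at D3, 882 at D6T-, 530 at D9T-, 526 at D12S+ and 537 at D16S+. More of the covered genes than of the others carried other active marks on the same day. In D3, 93.7% of covered genes had H3K4me3 within 1000 bp of the start (93.1 to 94.3%), against 50.3% of the other genes. In D9T- the shares were 92.7% and 42.2%, and in D16S+ 80.2% (77.5 to 82.6%) and 42.0%. The variant histone H3.3 lay in the body of 89.2% of covered and 39.2% of other genes in D3, and of 67.9% and 36.1% at D16S+.

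Fewer genes of the fibroblast matrix and contractile apparatus were covered in D6T- than in D3. Of the 33 on this list, 29 were covered in D0, 24 at D3, 7 at D6T-, 14 at D9T-, 3 at D12S+ and 2 at D16S+, and with all peaks 32, 26, 13, 18, 3 and 2. From D3 to D6T- the covered share was 51.5 percentage points lower, against 2.95 points lower over all genes. The interval of the difference, which ignores that the genes were the same, was 27.8 to 67.6 points lower. Between D0 and D9T-, a pair chosen for its matched coverage after the library values were seen, the list was 45.5 points lower while all genes were 4.09 points higher. Col1a2 lay under peaks over 95.5% of its body in D0, 87.0% at D3, 13.4% at D6T-, 27.7% at D9T-, 0% at D12S+ and 1.36% at D16S+. Its partner chain gene Col1a1 had the same course, with 94.4%, 84.3%, 8.20%, 30.3%, 0% and 0%. Tnc, the matrix protein tenascin C, had 100%, 68.0%, 1.64%, 0%, 0% and 0%, and Col12a1, another collagen, 95.5%, 82.0%, 0%, 4.45%, 0% and 0%. D0 and D3 were thus high and the other libraries low for all 4 genes, D9T- included, although D9T- had the most covered genes with top or all peaks.

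Other members were widely covered in D9T-. Fn1, the matrix glycoprotein fibronectin, lay under peaks over 95.3% of its body at D3, 18.4% at D6T-, 87.7% at D9T-, 10.7% at D12S+ and 17.5% at D16S+. By normalized tags in the body it ranked 17 of all genes at D3, 1084 at D6T-, 167 at D9T-, 26 at D12S+ and 20 at D16S+, so its low late share went with a high rank. Sparc, a collagen-binding protein, was high in the 3 early libraries (86.6%, 53.2% and 76.7%) and low at D12S+ and D16S+ (0% and 1.95%). Mmp2, a collagen-degrading protease, had 84.7% in D0, 18.9% at D3, 4.37% at D6T- and 73.7% at D9T-. Col6a1, of type VI collagen, had 87.0%, 38.8%, 22.8% and 85.8%, and both were at 0% at D12S+ and D16S+. For these genes D9T- was close to D0, unlike for Col1a2, Col12a1 and Tnc.

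Among 26 mesenchymal regulators, 15 were covered in D0, 8 at D3, 3 at D6T-, 8 at D9T- and 0 at both D12S+ and D16S+. Pdgfra, the receptor by which fibroblasts respond to PDGF, had 88.8% in D0, 14.4% at D3, 0% at D6T-, 2.18% at D9T-, 0% at D12S+ and 2.18% at D16S+, and so was low already on day 3. Tgfbr2, a TGF-β receptor, had 65.0% in D0, 35.9% at D3, 24.5% at D6T-, 62.2% at D9T-, 3.21% at D12S+ and 3.54% at D16S+. Fosl1, an AP-1 subunit, had 68.1% at D3, 73.7% at D6T-, 64.8% at D9T- and 0% at D12S+ and D16S+, and so was high in the 3 early libraries, D6T- included.

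**Figure D3:**
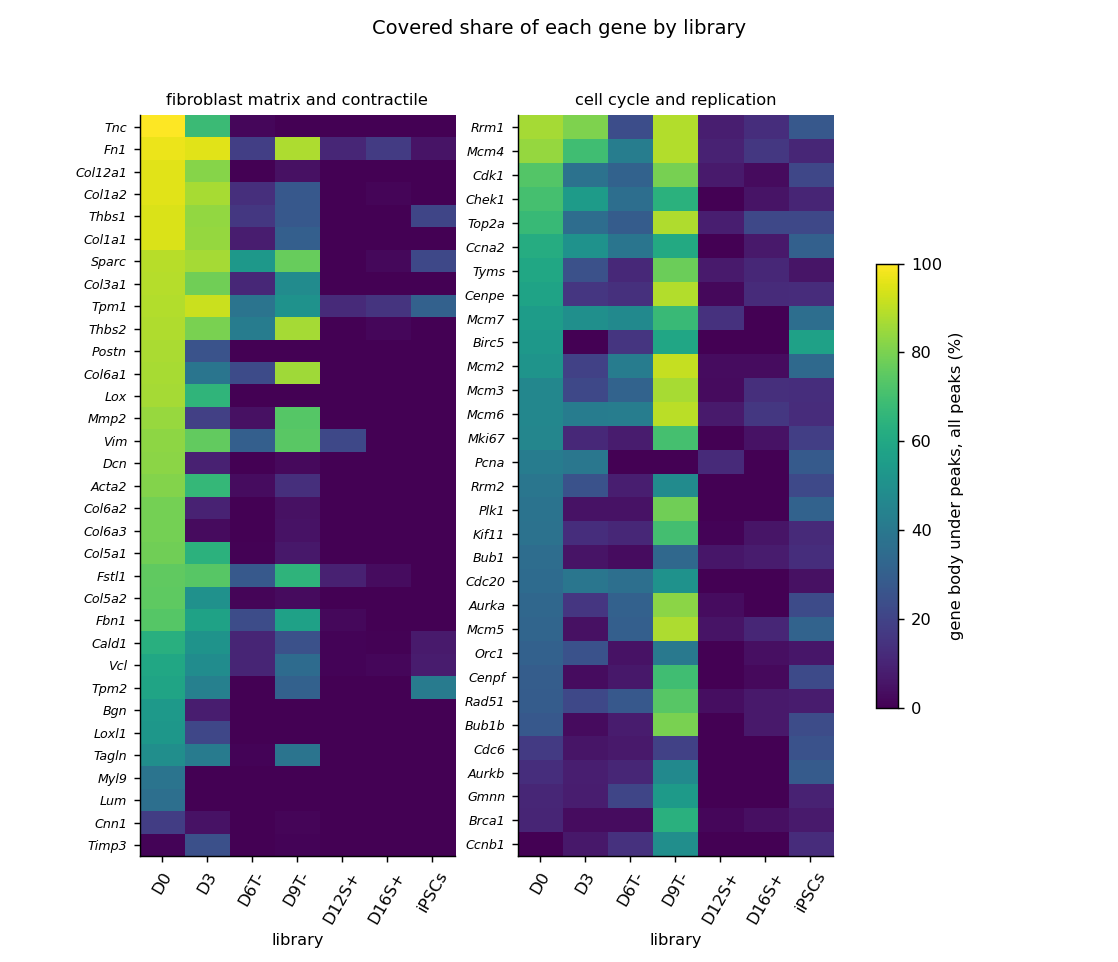
Share of the gene body under H3K36me3 peaks for each of the 33 fibroblast and 31 cell cycle genes (rows), all peaks, by library (columns). Col1a2 was at 87.0% at D3 and 13.4% at D6T-, whereas Mcm5 was at 4.31% at D3 and 87.5% at D9T-.

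Cell cycle and replication genes were most widely covered in D9T-. Of 31, 15 were covered in D0, 11 at D3, 12 at D6T-, 28 at D9T-, 2 at D12S+ and 6 at D16S+. The share was 41.9 points higher in D9T- than in D0 (19.3 to 59.5), against 4.09 over all genes. The difference was 19.4 to 51.6 points with at least 1 bp or 50% of the body, a fold of at least 8 or the 2000 top genes, and 0 points with all peaks or an equal covered length. With all peaks 30 were covered in D0, 20 at D3, 21 at D6T- and 30 at D9T-, so that nearly all of the 31 were covered in both D0 and D9T-. Mcm5 had 32.5% in D0, 4.31% at D3, 30.5% at D6T-, 87.5% at D9T-, 5.29% at D12S+ and 10.7% at D16S+. Mcm2, of the same helicase, had 51.8%, 19.3%, 41.9%, 91.0%, 3.27% and 3.27% in the same order, and Aurka, a mitotic kinase, 33.5%, 15.7%, 31.2%, 82.7%, 3.49% and 0%. All 3 were highest in D9T-, and each was higher in D6T- than in D3, although D6T- had fewer covered genes than D3 with top or all peaks.

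The tags of these lists were also set against each other within each library. Normalized tags summed over the fibroblast list were 6.87 times those over the cell cycle list in D0, 8.13 times in D3, 1.47 times in D6T-, 0.930 times in D9T-, 1.24 times in D12S+, 0.455 times in D16S+ and 0.376 times in iPSCs. The ratio was thus highest in D0 and D3, under 1.5 in the other libraries and lowest in D16S+ and iPSCs. Enrichment does not cancel in such ratios, since it decides which genes hold a peak at all: in D12S+ 26 of the 33 fibroblast and 14 of the 31 cell cycle genes had no tags in peaks, in D16S+ 24 and 11, and at D3 2 and 0. They are therefore given as values of each library, not as a course. Fn1 made up 28.1% of the fibroblast sum in D12S+ and 51.1% at D16S+, and without it the ratio was 0.894 and 0.222. Against 26 housekeeping genes the fibroblast list had 6.00 times the tags in D0, 4.91 times in D3, 1.14 times in D6T-, 1.42 times in D9T-, 1.55 times in D12S+, 0.950 times in D16S+ and 0.627 times in iPSCs, and without Fn1 1.11 times in D12S+ and 0.464 times in D16S+. These ratios were computed after the list counts were seen, and sums weigh long genes more.

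Few pluripotency genes were covered. Of 43, 4 were covered in D0, 2 at D3, 0 at D6T-, 9 at D9T-, 0 at D12S+, 2 at D16S+ and 4 in iPSCs. Nanog and Sox2 had no peak in their bodies in any of the 7 libraries, and Myc had 29.5% in D0 and 0% elsewhere. Pou5f1 was at 10.5% at D9T- and 0% elsewhere, from 1 peak of 500 bp with a fold over input of 4.06, near the lower limit of 4, where the input had 23.7 times its median density over the library's peaks. Klf4 had 23.2% in D0, 50.9% at D3 and 0% in the other libraries, and the input was at 3.51 and 1.45 times the median at its 2 peaks in D3. The part of the input in these shares was not tested. L1td1, an RNA-binding protein of pluripotent cells, had 0% in D0, D3 and D6T-, 62.0% at D9T-, 4.26% at D12S+ and 8.51% at D16S+. Mybl2, a cell cycle transcription factor, had 0% in D0, 3.33% at D3, 14.4% at D6T-, 78.2% at D9T- and 0% at D12S+ and D16S+. Both were highest in D9T-. Terf1, a telomere-binding protein, had 91.3% in D0, 37.4% at D3, 19.5% at D6T-, 85.0% at D9T-, 3.31% at D12S+ and 19.7% at D16S+. Of the genes for the sorting markers, Thy1 had 36.4% in D0 and 0% elsewhere, and the fucosyltransferase genes Fut4 and Fut9, whose enzymes can build SSEA-1, had no peak in any of the 7 libraries.

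More epithelial genes were covered in iPSCs than in any intermediate. Of 32, 2 were covered in D3, 0 at D6T-, 7 at D9T-, 1 at D12S+, 0 at D16S+ and 10 in iPSCs. From D16S+ to iPSCs, whose top peaks cover 8.97 and 12.3 Mb, the share was 31.3 points higher (14.2 to 48.6), against 4.66 over all genes. Krt18, a simple-epithelium keratin, had 13.1% at D12S+, 96.4% in iPSCs and 0% in the other 5 libraries. Cdh1, E-cadherin, had 0.747% at D16S+, 10.9% in iPSCs and 0% elsewhere. Neuronal (17), liver (12), olfactory receptor (1087) and replication-dependent histone genes (67) had 0 covered members in the 5 libraries, and of 17 hematopoietic genes 1 was covered, in D9T-. With all peaks D9T- had 2 neuronal, 2 hematopoietic and 1 olfactory receptor gene covered, so genes of other cell types were at or near 0 in these libraries.

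**Figure D4:**
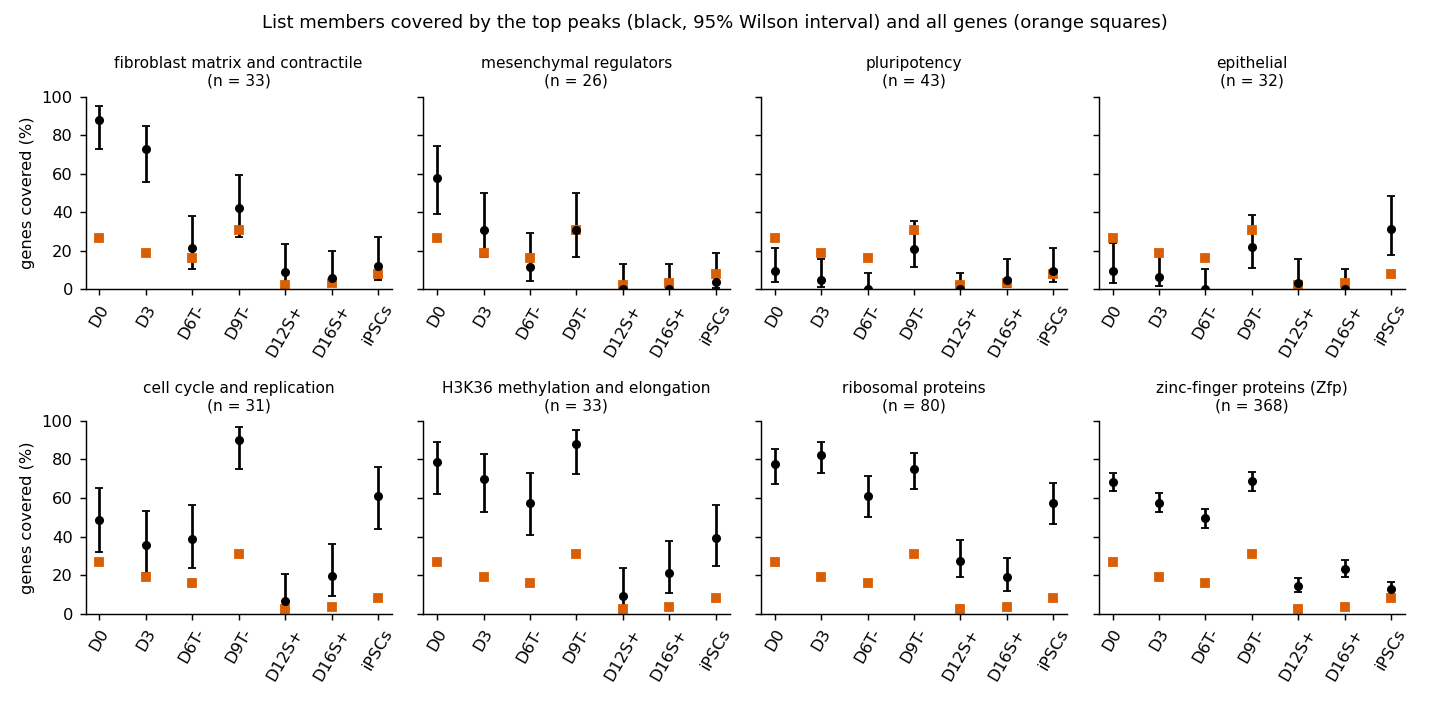
Share of each gene list covered (top peaks) in each library. The fibroblast list had 24 of 33 genes covered in D3 and 7 at D6T-, and the cell cycle list 28 of 31 at D9T-.

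Genes that every cell uses had more members covered in D9T- than in the late libraries. Of 26 housekeeping genes, 21 were covered in D3, 16 at D6T-, 23 at D9T-, 4 at D12S+ and 8 at D16S+. Of 33 genes for H3K36 methylation and elongation, 23, 19, 29, 3 and 7 were. Setd2, which writes the mark, had 47.6% at D3, 21.2% at D6T-, 61.5% at D9T-, 4.55% at D12S+ and 7.37% at D16S+, following the order of covered genes. Nsd1, a dimethylase of the same lysine, had 68.6%, 39.1%, 85.2%, 8.37% and 7.76%. Of 80 ribosomal protein genes 66, 49, 60, 22 and 15 were covered, of 91 oxidative phosphorylation genes 41, 39, 64, 11 and 11, and of 41 proteasome genes 29, 27, 32, 8 and 12. Each of these lists had a larger covered share in D12S+ and D16S+ than the 2.35% and 3.38% of all genes. This was not particular to them. The fibroblast list had 9.09% and 6.06%, the cell cycle list 6.45% and 19.4%, and the Zfp list 14.4% and 23.1%. The pluripotency list was at 0% and 4.65%, the epithelial list at 3.13% and 0%, and the mesenchymal list at 0% in both.

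198 genes (0.885%) were covered in all 5 intermediates. Of those of at least 20 kb, Ddb1, a subunit of a DNA-repair ubiquitin ligase, had 92.1% at D3, 80.6% at D6T-, 91.7% at D9T-, 32.5% at D12S+ and 38.0% at D16S+. With top peaks Srrm2 had 74.7%, 75.1%, 82.7%, 24.8% and 41.2%, and Kpnb1, a nuclear import receptor, 90.6%, 62.9%, 91.1%, 22.1% and 32.0%. Prpf8, Sf3b3 and Rbm5, all of the splicing machinery, were also among the 10 with the highest lowest share. For Ddb1, Srrm2 and Kpnb1 the 2 late libraries were below the 3 early ones.

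Between successive libraries, genes were counted whose share of the body covered by top peaks changed by at least 25 points. From D3 to D6T- 316 genes were higher (1.41%) and 1039 lower (4.65%), the lower ones of at least 20 kb led by Fn1, Col1a2 and Col12a1. From D6T- to D9T- 4472 genes were higher (20%) and 31 lower (0.139%), and from D9T- to D12S+ 8 were higher (0.0358%) and 5634 lower (25.2%). Med12, a Mediator subunit encoded on chromosome X, had the largest difference from D6T- to D9T- among genes of at least 20 kb, and with all peaks had 55.5% in D0, 4.27% at D3, 12.1% at D6T-, 91.0% at D9T-, 0% at D12S+ and 2.13% at D16S+. From D12S+ to D16S+, the best-matched step, 49 genes were higher (0.219%) and 29 lower (0.130%). Ptcd3, a mitochondrial ribosomal protein, had 1.78% and 27.3% with top peaks, and Emp1, a membrane protein, 22.1% and 2.47%. Of the pairs chosen after the library values were seen, D3 to D9T- had 3600 genes higher (16.1%) and 170 lower (0.760%), D0 to D9T- 1784 higher (7.98%) and 598 lower (2.67%), and D16S+ to iPSCs 361 higher (1.61%) and 47 lower (0.210%). The 170 had a median length of 6.71 kb, the 3600 of 21.3 kb and all genes of 15.4 kb. The lowest top peak had 28.5 normalized tags in D3 and 76.4 in D9T-, so a short gene with few tags can drop out in D9T-. The part of this limit in the 170 was not tested. From D0 to D9T- 20 of the 33 fibroblast genes were among the lower and 0 among the higher, while 20 of the 31 cell cycle genes were among the higher and 0 among the lower. These calls also depend on the limit of the top peaks, whose lowest had 60.2 normalized tags in D0. With all peaks, 30 of the 31 cell cycle genes were covered in D0 and 30 in D9T-.

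Most of the 170 genes lower in D9T- than in D3 had the promoter mark on both days. H3K4me3 was at 89.4% of them in D3 (83.9 to 93.2%) and at 90.6% at D9T- (85.3 to 94.1%), against 62.6% and 62.5% of all genes. The choice asks for coverage in D3, and of all genes covered there with top peaks 94.3% had H3K4me3. The 3600 genes higher in D9T- had it at 93.9% and 94.4%, and of all genes covered in D9T- with top peaks 93.6% had it. H3.3 lay in the body of 89.4% of the 170 in D3 (83.9 to 93.2%) and 82.4% at D9T- (75.9 to 87.3%). Over all genes these shares were 53.4% and 53.8%, and of the genes covered in D3 with top peaks 92.2% had H3.3 in D3. In D6T-, which the choice did not use, 42 of the 170 were covered (24.7%), and in D0 124 (72.9%), against 16.0% and 26.6% of all genes. All genes are not a matched background here, since the 170 were chosen for coverage in D3. With all peaks, 83.0% of the base pairs covered in D3 lay in D0 peaks, so the D0 share follows largely from the choice.

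1 gene (0.00447%) was covered in D12S+ and D16S+ and in none of D3, D6T- and D9T-. This was Fam136a, a short gene of 4.375 kb with 11.4% in both late libraries, just over the 10% limit. In the opposite class were 2034 genes (9.09%), covered in the 3 early libraries and in neither late one. Of these 96.3% were covered in D0 (95.4 to 97.0%) and 30.1% in iPSCs (28.2 to 32.2%), against 26.6% and 8.04% of all genes. The class was chosen for coverage in D3, D6T- and D9T-, so all genes, most of them not covered there, are not a matched background. Mybbp1a, a nucleolar protein, had 90.8%, 90.4% and 88.9% in the early libraries and 0% and 14.4% at D12S+ and D16S+. Rpl3, a ribosomal protein, had 87.9%, 81.4% and 85.3%, then 0% and 17.8%. Both were above the 10% limit in D16S+ once all peaks were used, and both are genes of every growing cell. The part of the lower enrichment of the late libraries in this class was not tested. With covered length made equal the classes held 28 and 64 genes. With the 2000 genes of most normalized tags in each library, a choice made after the data were seen, 103 genes (0.460%) were among them only in both late libraries and 114 (0.510%) only in the 3 early ones. Their median lengths were 23.8 kb and 56.9 kb, and summed tags weigh long genes more. Distance from the limit varied: Cep57, a late gene, ranked 2169, 2026 and 2653 in the early libraries, whereas Ptpn3, also late, had no tags at D3 and D6T-. Of the late 103, 16 were Zfp genes (15.5%, against 1.65% of all genes) and 3 cell cycle genes (Mcm4, Bub1 and Tyms, 2.91% against 0.139%). A further 3 were oxidative phosphorylation entries (2.91% against 0.407%), but 2 of these were annotated entries of the same gene, Ndufb8, with the same late tags. Of the early 114, 3 were Zfp genes (2.63%), 2 fibroblast genes (Sparc and Thbs2, 1.75% against 0.148%) and 0 cell cycle genes.

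With equal numbers of top peaks, zinc-finger genes named Zfp were a larger share of covered genes in the late intermediates. They were 5.02% of covered genes in D3, 5.10% at D6T-, 3.69% at D9T-, 10.1% at D12S+ (7.79 to 12.9%), 11.2% at D16S+ (9.17 to 13.7%) and 2.56% in iPSCs (1.92 to 3.39%), while 1.65% of all genes bear this name. Among the 2000 top genes they were 3.3%, 3.10%, 2.25%, 4.15%, 5.10% and 1.80%. With equal covered length this order was lost (14.3%, 11.7%, 17.4%, 10.1% and 14.7% from D3 to D16S+), whereas iPSCs at 3.42% were lowest under all 3 counts. Of the 20 highest peaks, 2 at D3, 2 at D6T-, 0 at D9T-, 7 at D12S+ and 7 at D16S+ overlapped a Zfp gene. Zfp110 had 90.1% at D3, 86.2% at D6T-, 90.9% at D9T-, 35.6% at D12S+, 62.2% at D16S+ and 49.2% in iPSCs. Zfp942 had 66.4%, 46.9%, 87.0%, 17.9% and 23.6%, and 0.386% in iPSCs. Reads that match several loci were removed by the authors, which can leave gaps in near-identical members of this family.

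**Figure D5:**
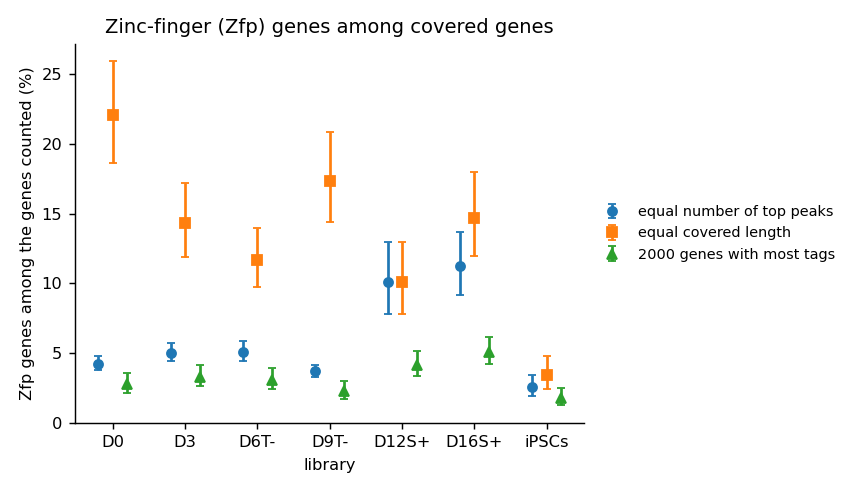
Share of Zfp genes among covered genes in each library under the different ways of equalizing them. iPSCs were lowest in each, while the order of early and late intermediates changed with the method.

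The early intermediates shared more of their coverage with D0 than with iPSCs. The Jaccard index, base pairs covered in both over those covered in either, was 0.425 with D0 and 0.0921 with iPSCs for D3, 0.253 and 0.0980 for D6T-, and 0.532 and 0.0686 for D9T-. For D12S+ it was 0.0471 and 0.0423, and for D16S+ 0.0597 and 0.0539. Unequal covered lengths limit the index: the highest possible value with D0 was 0.0722 for D12S+ and 0.0873 for D16S+, so the late values cannot be read as distance. With equal covered length, where this limit is lifted, the index with D0 and with iPSCs was 0.348 and 0.0791 for D3, 0.191 and 0.0812 for D6T-, 0.272 and 0.0675 for D9T-, 0.0565 and 0.0380 for D12S+, and 0.0696 and 0.0446 for D16S+. Each of the 5 was then higher with D0. Equal length does not equalize enrichment, with 31.3% of tags in peaks in D0 and 2.88% in iPSCs. Its part in these values was not tested, so they cannot be read as distance either. Of the base pairs covered in D12S+ 82.9% lay in D9T- peaks and 12.3% in D16S+ peaks, and of those covered in D16S+ 80.4% lay in D9T- and 8.26% in D12S+ peaks. These shares use all peaks, which cover 167 Mb in D9T-, 11.1 Mb in D16S+ and 7.42 Mb in D12S+. They therefore cannot be read as likeness either. Of the 2000 top genes of D12S+ and of D16S+, 1229 were shared (61.45% of each). Both shared more with each early intermediate: 1257 with D3, 1272 with D6T- and 1275 with D9T- for D12S+, and 1289, 1263 and 1301 for D16S+. They shared fewer with D0 (1167 and 1207) and with iPSCs (1024 and 1053).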

How the data were processed

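H3K36me3 ChIP-Seq was read in D3, D6T-, D9T-, D12S+ and D16S+ cells, beside D0 and iPSCs. Per the study's methods, the authors aligned reads with STAR to mm9, removed multi-locus reads, and called peaks for each library against its input with HOMER findPeaks in histone style; versions are not given in the sources used here. Per the file headers, peaks have at least 4-fold enrichment and 500 bp, and the deposited normalized tag count is a signal scaled to 10M tags. The deposited fold over input is a ratio, and the deposited p-value over input is at most 0.0001. No reads or counts were tested. Peaks on assembled chromosomes were overlapped with 22367 protein-coding genes of an mm9 annotation in Python 3.11.15 (numpy 2.4.6, pandas 2.3.3, scipy 1.17.1). Overlapping genes share peaks. The computations were tested on simulated data.

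Alternatives were all peaks, equal covered length (7.42 Mb), at least 1 bp or 50% of the body, a fold of at least 8, the nearest start site, and leaving out D12S+ or D6T-. Named genes were those of the delivered factors, sorting markers and study text, the extremes of each gene list, the 10 most constant, the leading genes gained or lost late, and the 3 leading genes of each step; other genes were chosen after their values were seen. The members and lists were chosen with earlier results of these data known.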

Additional observations from a re-analysis of the deposited data

How the results depend on the processing

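No paired analysis was possible because each group has 1 library. Of the recomputed values, 106 stayed within 1.5 times or their interval, 78 moved further and 3 were counted apart as reversed. Some values among the 106 and the 78 changed sign as well. From D3 to D16S+, genes covered were 9634, 8342, 5067 (D12S+) and 5563 (D16S+) with at least 1 bp, 1642, 763, 4817, 10 and 21 with at least 50% of the body, 676, 882, 530 and 537 with equal covered length (D12S+ defines it), and 238, 172, 3065, 38 and 61 with a fold of at least 8. By nearest start site they were 10396, 9054, 5573 and 6165, without D9T-. The log2 ratio of the Jaccard index with iPSCs over D0 turned from -0.16 to 0.10 in D12S+ and from -0.15 to 0.0078 in D16S+ with all peaks. With a fold of at least 8 it was -3.79 in D3, -4.43 in D9T-, -1.23 in D12S+ and -1.74 in D16S+, and with equal length -2.01 in D9T-.

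Genes gained late numbered 28 with equal length, 109 with 1 bp, 0 with 50%, 16 without D12S+ and 103 with 2000 top genes. Genes lost late numbered 3441 with all peaks, 64 with equal length, 426 with 50%, 595 with 1 bp, 8 with a fold of 8 and 114 with 2000 top genes, and 98.9%, 67.2%, 98.1%, 88.9%, 37.5% and 86.0% of them were covered in D0 (94.6% without D6T-). With all peaks or a fold of 8, 1 gene was gained late, and it was not covered in iPSCs. Of those gained late 28.6% were covered in iPSCs with equal length, against 4.32% of all genes. The shares were 22.9% against 22.3% with 1 bp, 31.3% against 8.04% without D12S+ and 26.2% against 8.94% with 2000 top genes. Genes covered in all 5 numbered 91 with equal length, 1 with 50%, 611 without D12S+ and 772 with 2000 top genes.

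The fibroblast list from D3 to D16S+ changed by -30.3 points with equal length, -3.03 with a fold of 8 and -36.4 with 2000 top genes, and from D3 to D9T- it turned from -30.3 to 12.1 with a fold of 8. The pluripotency list changed by 0 points from D3 to D9T- with equal length. The cell cycle list from D3 to D16S+ changed by -16.1 with top peaks and -38.7 with all peaks. It changed by 6.45 with equal length, 16.1 with 1 bp and 38.7 with 2000 top genes, so the sign turned. From D3 to D9T- it changed by 0 with equal length, 19.4 with a fold of 8 and 25.8 with 2000 top genes. From D0 to D9T- it changed by 0 with all peaks or equal length. Ribosomal protein genes from D3 to D16S+ changed by -28.8 with equal length, -2.50 with a fold of 8 and -1.25 with 2000 top genes. From D3 to D9T- they changed by -7.50 with top peaks, -26.3 with equal length and 12.5 with a fold of 8. The share within genes was 88.2%, 91.4%, 88.6%, 87.2% and 83.0% by peak midpoint, and 93.9%, 94.3%, 93.4% and 85.8% (D16S+) with top peaks. The cause of these changes was not tested. Single libraries and the low enrichment of D12S+ and D16S+ limit each late value.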

Other observations

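Chromosome X genes were covered less often than autosomal genes in each library. With all peaks, 11.3% of them were covered in D3 against 29.1% of autosomal genes, 4.51% against 23.0% in D6T-, 24.0% against 41.0% in D9T-, 0% against 2.46% in D12S+ and 0.322% against 4.30% in D16S+. The lowest single autosome was at 22.7% in D3 and 32.2% in D9T-.

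The highest D16S+ peak was a domain of 11.76 kb on chromosome 10 (82870576 to 82882336) outside protein-coding genes, and the fourth, of 8.652 kb (82911416 to 82920068), lay near it. The 3 highest D6T- peaks were single 500-bp windows found in no other H3K36me3 library. They lay at chr9:35113129-35113628, chr12:3109408-3109907 and, within the neural adhesion gene Chl1, chr6:103598598-103599097. The input was dense there too, at 141, 119 and 78.4 times its median over the D6T- peaks, and its part in them was not tested.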
